A study of Homo sapiens with 2 samples.

Results

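Hexokinases trap glucose in the cell by phosphorylating it, and the bifunctional PFKFB enzymes make and break fructose 2,6-bisphosphate, the strongest known activator of the phosphofructokinase that commits sugar to glycolysis. The 9 genes described here cover both control points: the hexokinase genes HK1, HK2 and HKDC1, the gene of the ADP-dependent glucose kinase ADPGK, the sugar kinase regulator gene GCKR, and PFKFB1, PFKFB2, PFKFB3 and PFKFB4. They were picked by symbol, and all 9 were found among 25343 gene entries. HK2 is low in normal hepatocytes, and liver cancer cells are known for switching it on. The GCKR protein of hepatocytes holds glucose phosphorylation back when glucose is scarce.

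RNA came from Huh7, an established human hepatoma line described in the labels as well differentiated, in a single comparison of medium with 4.5 g/L glucose (high glucose) and 0.45 g/L glucose (low glucose). Both cultures received serum-supplemented DMEM for 6 days, and at each passage live cells alone were re-seeded. Each medium has 1 library, so no difference below has a replicate check, no p-value is possible, and the values describe these 2 libraries. Levels are TPM (transcript abundance corrected for transcript length and summing to 1000000 in each library). Reads per gene are not given, so the depth behind a value is unknown. In bulk RNA, fewer cells with a transcript and less transcript per cell cannot be told apart. Hepatocyte markers fitted the label in both libraries, with all 7 fixed markers at 154 TPM or more. Their sum was 37876 TPM in high glucose and 31214 TPM in low glucose. FGB was higher in low glucose (log2 difference 0.59) and the others were lower, down to -0.99 for TTR. None passed the 2-fold rule given below. Of 10 markers of immune, endothelial, stromal and bile duct cells, 5 were below 1 TPM in both libraries, and 1, KRT7, was listed at 0 in low glucose (0.72 TPM in high glucose). The summed level of these 10 was 577 TPM in high glucose and 246 TPM in low glucose, of which LYZ made up 550 and 198 TPM and CD68 20.4 and 39.3 TPM. The other 8 summed to 6.27 and 9.18 TPM. By the 2-fold rule given below, 1 of the 10 was lower in low glucose (LYZ) and 1 higher, the collagen gene COL1A1 (1.06 and 4.03 TPM, log2 difference 1.29), and the part of any of these markers in the results below was not tested.

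Every one of the 9 genes had a higher value in low glucose. HK2, HKDC1, GCKR and PFKFB4 were at least 2-fold higher, ADPGK, PFKFB2 and PFKFB3 were higher by less than 2-fold, and HK1 and PFKFB1 stayed near the bottom of the scale in both media. The 2-fold rule is a difference of at least 1 in log2(TPM + 1), low minus high glucose, among genes with a mean of at least 1 TPM. The 7 genes above that level were above 1 TPM in each library separately. Among all 13745 genes compared, 3.65% were at least 2-fold higher and 1.10% at least 2-fold lower. Of the 7 genes of this set that were compared, 4 were higher and 0 lower by that rule. HK1 and PFKFB1 were below the level compared. A difference above 0 was found in 54.6% of all genes compared and in all 7 of the set. Without the filter on level, the median difference was 0.75 over the 9 genes and 0.04 over the 18791 entries above 0 in either library. With the filter, it was 1.14 over 7 of the 9 genes and 0.05 over all genes compared. These genes were singled out with results of the same data known, so the counts describe them and support nothing further.

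**Figure D1:**
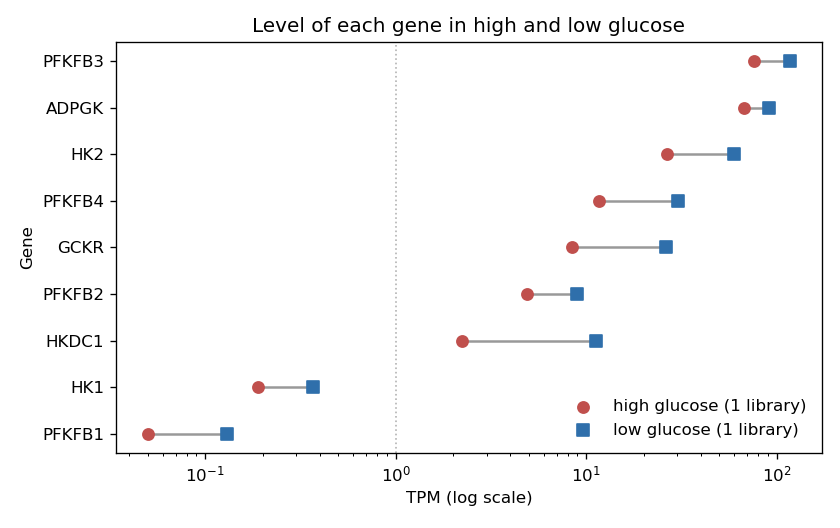
TPM of each gene on a log axis in the high glucose library (circles) and the low glucose library (squares), 1 library each, ordered by mean level, with a dotted line at 1 TPM. All 9 squares lie to the right of their circles, from 0.05 and 0.13 TPM for PFKFB1 to 75.7 and 117 TPM for PFKFB3.

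The sequence before the start sites is shown for 4 of these genes, and its part in the differences was not tested. HK2 and PFKFB3 are shown for the E-box CACGTG (capitals), a palindrome read by MYC, USF and the carbohydrate response factors. It also contains ACGTG, the only form of the hypoxia response core searched here. HKDC1 and GCKR, with the largest differences of the 9 genes, are shown beside them and hold no E-box in the stretch printed. All are RefSeq sequences in GRCh38.p14, plus strand, 5′ to 3′, and end at the annotated start or at the first exon of the gene in GENCODE 29, whichever comes first. The HK2 stretch, chr2:74834920-74835169, lies within an intron of HK2, before its downstream start. That of PFKFB3, chr10:6202682-6202865, likewise lies within an intron of PFKFB3. HK2 and PFKFB3 have 2 windows each, and the window printed was picked because it holds an E-box. The other window of each gene holds no E-box and is not printed. TPM per gene does not show which start was used. The HKDC1 and GCKR stretches are chr10:69220082-69220302 and chr2:27496589-27496838, 5′ of each gene.
HK2: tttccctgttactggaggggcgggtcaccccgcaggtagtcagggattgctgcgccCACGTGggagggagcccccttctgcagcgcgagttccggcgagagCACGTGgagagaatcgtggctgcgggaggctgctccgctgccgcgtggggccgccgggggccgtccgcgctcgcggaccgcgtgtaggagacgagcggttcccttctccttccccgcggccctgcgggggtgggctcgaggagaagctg
PFKFB3: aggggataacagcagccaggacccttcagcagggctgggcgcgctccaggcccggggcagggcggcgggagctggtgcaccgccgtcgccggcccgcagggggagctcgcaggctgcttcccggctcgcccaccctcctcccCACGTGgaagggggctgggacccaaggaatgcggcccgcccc
HKDC1: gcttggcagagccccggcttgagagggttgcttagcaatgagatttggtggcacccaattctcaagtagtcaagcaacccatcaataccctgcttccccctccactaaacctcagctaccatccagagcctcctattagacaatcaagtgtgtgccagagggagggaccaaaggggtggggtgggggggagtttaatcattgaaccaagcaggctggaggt
GCKR: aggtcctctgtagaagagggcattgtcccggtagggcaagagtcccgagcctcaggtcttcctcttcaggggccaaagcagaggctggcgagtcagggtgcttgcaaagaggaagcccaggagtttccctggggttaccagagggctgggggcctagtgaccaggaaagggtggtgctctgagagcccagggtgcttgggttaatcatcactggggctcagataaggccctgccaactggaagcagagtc

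Motifs were searched on both strands in the 250 bases before each start, in 17 windows of 8 of the genes. No window was used for PFKFB2. CACGTG was present in 2 of the 17 windows, 1 each of HK2 and PFKFB3, and in 6.34% of 35116 windows of all genes. ACGTG, counted also where it lies inside CACGTG, was present in 3 windows, all of HK2 or PFKFB3, and in 18.5% of all windows. The cyclic AMP response core TGACGT was present in 1 window each of HK2, PFKFB3 and ADPGK (7.10% of all windows). The ATF4-type element TGATGNAA was present in 2 overlapping windows of HK1 alone (3.14% of all windows). None of the 4 motifs was found in the windows of HKDC1, GCKR, PFKFB4 or PFKFB1. A match is a string of letters and does not show that a factor binds there. Of the 4 genes past the 2-fold rule, HK2 held a match, and PFKFB3, within 2-fold, held matches too. HK2 and PFKFB3 had 2 windows each, and HKDC1, GCKR and PFKFB4 had 1 each, so the length searched was unequal. Any relation between the motifs and the differences was not tested.

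Among the hexokinases, HK2 (chromosome 2, 75059782 to 75120481 in hg19, the build of all gene intervals here) was the main transcript in both media. Its product is the high-affinity enzyme typical of muscle, embryonic tissue and tumours, which docks on the outer mitochondrial membrane. HK2 stood at 26.6 TPM in high glucose and 59.9 TPM in low glucose, a ratio of 2.25 and a log2 difference of 1.14. Of the genes compared, 350 (2.55%) had a larger difference. Of 687 genes of similar level (median 39.5 TPM), 7 did, and the median difference of that group was -0.01.

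HKDC1 showed the largest difference of the 9 genes. It encodes the most recently described hexokinase, found in intestine and kidney and in liver cancers. Its interval (chromosome 10, 70980059 to 71027315) ends 2440 bases short of that of HK1. HKDC1 stood at 2.23 TPM in high glucose and 11.2 TPM in low glucose, a ratio of 5.03. The log2 difference of 1.92 was exceeded by 71 genes (0.517%) of those compared and by 3 of 688 genes of similar level (median 6.23 TPM). Because HKDC1 was low in high glucose, this difference leans on the pseudocount: with a pseudocount of 5 it was 1.17, and with 0.1 it was 2.28.

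The neighbouring gene HK1 (chromosome 10, 71029756 to 71161637), which encodes the housekeeping hexokinase of brain and red cells, was near 0 in both libraries. It stood at 0.19 TPM in high glucose and 0.37 TPM in low glucose, below the level compared, where 2 decimals leave little precision. HK2 thus exceeded HK1 140-fold in high and 162-fold in low glucose, in TPM. HK3, the white cell enzyme, named outside the rule for named genes, was listed at 0 TPM in high glucose and 0.03 TPM in low glucose.

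The summed level of HK1, HK2 and HKDC1 was 28.99 TPM in high glucose and 71.5 TPM in low glucose, a ratio of 2.46. HK2 made up 91.7% of that sum in high and 83.8% in low glucose. The share of HKDC1 was 7.69% and 15.7%, and that of HK1 0.655% and 0.518%. Of the gain in summed TPM, 78.4% was HK2 and 21.2% HKDC1. The ratio of HK2 to HKDC1 was 11.9 in high and 5.34 in low glucose. The shares of each sum and the ratio of HK2 to HKDC1 compare genes within a library and do not change with the scaling between libraries. The shares of the gain set the libraries against each other and do change with it.

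ADPGK (chromosome 15, 73043708 to 73076126) encodes a glucose kinase of the endoplasmic reticulum that uses ADP in place of ATP. It stood at 67.6 TPM in high glucose and 90.8 TPM in low glucose, within 2-fold (log2 difference 0.42). Larger differences were found for 20.9% of the genes compared. In high glucose ADPGK exceeded the hexokinase sum by a ratio of 2.33, and in low glucose by 1.27. Its interval overlaps that of the antisense gene ADPGK-AS1, which was listed at 0.06 TPM in high glucose and 0 TPM in low glucose. Whether the libraries keep strand is not given in the sources used here, so reads of such a pair cannot be told apart.

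GCKR (chromosome 2, 27719706 to 27746550), whose liver-specific product inhibits glucose phosphorylation, stood at 8.46 TPM in high glucose and 26.2 TPM in low glucose. The ratio was 3.10 and the log2 difference 1.52, exceeded by 137 genes (0.997%) of those compared. Of 688 genes of similar level (median 16.1 TPM), 7 had a larger difference.

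**Figure D2:**
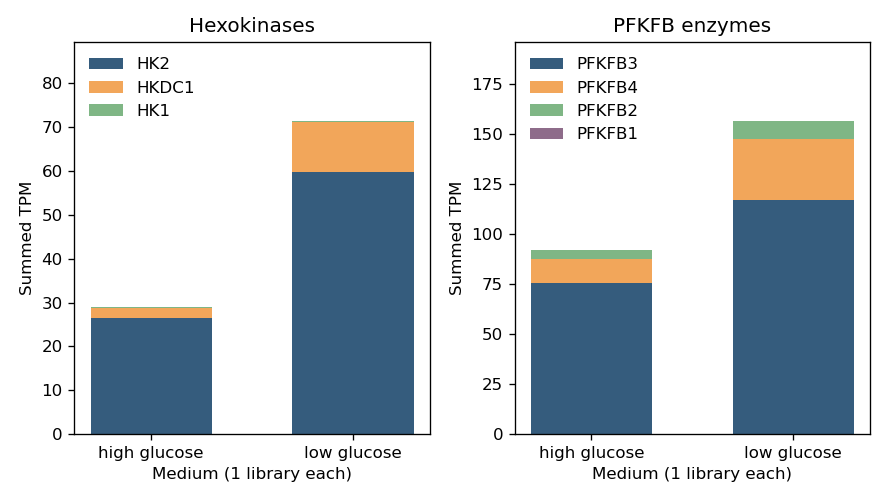
Stacked bars of TPM, from 0, for the hexokinase genes (left) and the PFKFB genes (right) in 1 library per medium. The hexokinase stack is 28.99 TPM in high glucose and 71.5 TPM in low glucose, with HK2 the main part and HK1 too thin to see. The PFKFB stack is 92.3 and 156.6 TPM, with PFKFB3 the main part and PFKFB1 too thin to see.

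PFKFB3 was the most abundant of the PFKFB genes and of all 9 genes. Its product (chromosome 10, 6186843 to 6277507) is the inducible isozyme of proliferating and tumour cells, with far more kinase than phosphatase activity. PFKFB3 stood at 75.7 TPM in high glucose and 117 TPM in low glucose, a ratio of 1.55 and a log2 difference of 0.62, within 2-fold. Larger differences were found for 11.5% of the genes compared. At its level the genes of the group (median 102 TPM) had a median difference of -0.12, so the value minus that median was 0.75.

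PFKFB4 (chromosome 3, 48555117 to 48594227), the isozyme first known from testis and also found in tumours, differed more. It stood at 11.6 TPM in high glucose and 30.4 TPM in low glucose, a ratio of 2.62 and a log2 difference of 1.31. Of the genes compared, 217 (1.58%) had a larger difference, and so did 6 of 687 genes of similar level (median 19.4 TPM). PFKFB2 (chromosome 1, 207226620 to 207254368), the heart isozyme that insulin signalling activates, stood at 4.90 TPM in high glucose and 8.91 TPM in low glucose. Its ratio was 1.82 and its log2 difference 0.75, within 2-fold and exceeded by 7.84% of the genes compared.

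PFKFB1 (chromosome X, 54959567 to 55024967), which encodes the isozyme of normal liver and muscle, was near 0 too. It stood at 0.05 TPM in high glucose and 0.13 TPM in low glucose, the lowest of the 9 genes in each library and below the level compared.

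The 4 PFKFB genes summed to 92.3 TPM in high glucose and 156.6 TPM in low glucose, a ratio of 1.70. PFKFB3 held 82.0% of the sum in high and 74.8% in low glucose. The share of PFKFB4 was 12.6% and 19.4%, that of PFKFB2 5.31% and 5.69%, and that of PFKFB1 0.0542% and 0.0830%. Of the gain, PFKFB3 made up 64.5% and PFKFB4 29.1%. The ratio of PFKFB3 to PFKFB4 was 6.52 in high and 3.86 in low glucose. In both families the most abundant gene held a smaller share in low glucose, and the gene with the larger fold held a larger one.

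Ordered by TPM, high glucose gave PFKFB3, ADPGK, HK2, PFKFB4, GCKR, PFKFB2, HKDC1, HK1 and PFKFB1. In low glucose the order was the same except that HKDC1 (11.2 TPM) stood above PFKFB2 (8.91 TPM). With no replicates, whether neighbours in this order differ beyond the spread between cultures cannot be judged.

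**Figure D3:**
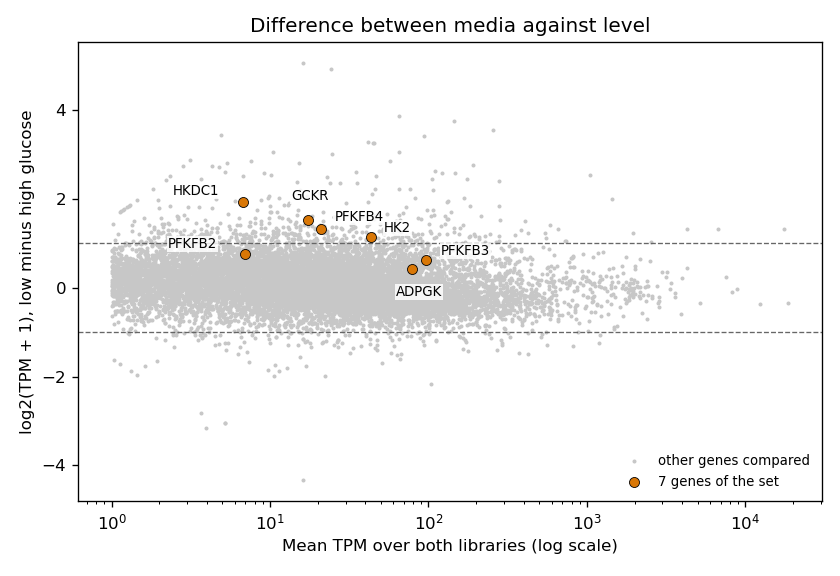
Difference in log2(TPM + 1), low minus high glucose, against the mean TPM of both libraries (log axis) for all 13745 genes compared (grey) and the 7 genes of this set that were compared (orange), with dashed lines at the 2-fold rule. HKDC1, GCKR, PFKFB4 and HK2 lie above the upper line, at 1.92, 1.52, 1.31 and 1.14, and PFKFB2, PFKFB3 and ADPGK lie between the upper line and 0.

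Other genes of the same steps were described from fixed lists. Of 43 genes on 6 lists of related enzymes, carriers, channels and regulators, 37 were at the level compared, with 0 at least 2-fold higher and 0 lower, beside 3.65% and 1.10% of all genes compared. With so few genes, a count of 0 is near those shares. Of these 37, 11 lay above 0 and 26 below (8 to 12 above under the 6 other scalings), with a median of -0.15 against 0.05 over all genes compared. The difference between these genes and the 9 described here was not tested.

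The enzymes that act on fructose 6-phosphate and fructose bisphosphates, downstream of the hexokinases and around the step that PFKFB products control, had 8 genes at the level compared, all below 0 (median -0.24; 7 of 8 when the MTRNR2L genes were left out of the total). They included ALDOA, an aldolase (977 and 744 TPM), and GPI, the isomerase that uses the hexokinase product (128 and 108 TPM). The hexokinase sum was 0.227 of the GPI level in high and 0.659 in low glucose. The genes of the phosphofructokinase that fructose 2,6-bisphosphate activates, PFKL, PFKM and PFKP, were summed after their values were seen. Their sum was 161 TPM in high glucose and 139 TPM in low glucose, and the PFKFB sum was 0.573 and 1.13 of that level.

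Among other sugar kinases, 4 of 10 genes compared lay above 0 and 6 below (median -0.14; 3 above and 7 below under 4 of the 6 other scalings). The most abundant were NAGK, which phosphorylates N-acetylglucosamine (47.5 and 41.3 TPM), and the dihydroxyacetone kinase gene DAK (33.3 and 34.0 TPM). The fructokinase gene KHK, named after its values were seen, had the lowest difference of that list (-0.82). Glucose 6-phosphatases and carriers, which act against hexokinase or move its product, had all 4 genes compared above 0 by at most 0.27 (median 0.22; 3 of 4 under 3 of the 6 other scalings). G6PC3, the ubiquitous phosphatase, stood at 73.4 and 84.3 TPM, and the carrier SLC37A4 at 60.9 and 62.6 TPM.

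The VDAC genes encode the mitochondrial channels on which HK2 docks, and all 3 lay below 0 (median -0.55), except that 1 lay above 0 once the median of each level group was subtracted. VDAC1 stood at 361 TPM in high glucose and 247 TPM in low glucose, and VDAC3 at 249 and 163 TPM. The hexokinase sum was 0.0357 of the VDAC sum in high and 0.120 in low glucose. Kinases known to phosphorylate PFKFB proteins had 2 of 8 genes above 0 and 6 below (median -0.13; 1 above under 3 of the 6 other scalings). The AMPK subunit gene PRKAA1 stood at 170 and 174 TPM, and PRKACA, a catalytic subunit of protein kinase A, at 106 and 67.9 TPM. Of the hypoxia-inducible factor genes and MYC, known regulators of HK2 and PFKFB3, HIF1A stood at 193 and 174 TPM and MYC at 105 and 198 TPM. MYC lay above 0 and the other 3 genes of that list below (2 below once the median of each level group was subtracted). The difference of MYC was 0.91, short of 2-fold, and 1.07 with that subtraction.

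**Figure D4:**
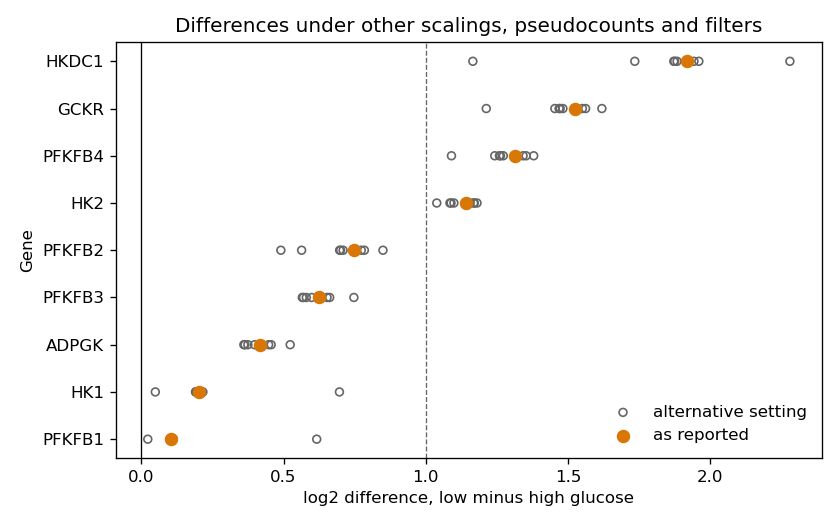
Difference in log2 level, low minus high glucose, for each gene as reported (filled) and under each alternative scaling, pseudocount and filter (open), with a dashed line at the 2-fold rule. HKDC1, GCKR, PFKFB4 and HK2 stay to the right of the dashed line at every open point, and the other 5 genes stay between 0 and the line.

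Across these alternatives HK2 ranged from 1.04 to 1.18, PFKFB4 from 1.09 to 1.38, GCKR from 1.21 to 1.62 and HKDC1 from 1.17 to 2.28. The genes within 2-fold ranged from 0.57 to 0.75 for PFKFB3, from 0.49 to 0.85 for PFKFB2 and from 0.36 to 0.52 for ADPGK. With a rule of 3-fold in place of 2-fold, HKDC1 alone of the 7 genes of the set compared remained higher, against 0.866% of all genes compared. At 3-fold 0 were lower, against 0.160%. With 1.5-fold, PFKFB2 and PFKFB3 joined the other 4, against 13.0% of all genes compared, and 0 were lower, against 6.07%.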

How the data were processed

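The deposited values are TPM per gene with 2 decimals, 1 file per library, per the file headers. The submitters' processing notes name cutadapt (adapter trimming), RSEM 1.2.21 (which divides reads that map to several genes between them) and hg19. For aligner, annotation, filters and strand setting nothing is given in the sources used here. A TPM value covers all transcripts of a gene, and a fixed total means that a gene taking more lowers all others. Some listed genes are not reported here. Groups came from the treatment label. The design's rule for TPM was used: log2(TPM + 1), a mean of at least 1 TPM and a 2-fold rule, with no test. The members and lists were chosen with earlier results of these data known. Named genes were all 9 genes and, of each of 6 lists, every gene past the rule and the 2 most abundant. For each gene past the rule, the 3 nearest genes by Euclidean distance over the log2 levels of both libraries were also named. Similar level means 1 of 20 equal groups by mean TPM. Promoters came from RefSeq (GRCh38.p14), matched by symbol for 8 of 9 genes, and exons from GENCODE 29. Alternatives were median-of-ratios, upper-quartile and trimmed-mean scaling, a total that leaves out the 50 genes of highest mean TPM, subtraction of the level group's median, pseudocounts of 0.1 and 5, no filter or a mean of at least 10 TPM, rules of 1.5-fold and 3-fold and, added after the data were seen, the total without the MTRNR2L genes. The procedure was tested on simulated data. Calculations used Python 3.11.15, pandas 2.3.3 and numpy 2.4.6.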

Additional observations from a re-analysis of the deposited data

How the results depend on the processing

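All 84 differences of the 9 genes recomputed under other scalings, pseudocounts and filters kept their sign and their side of the 2-fold rule. Those under other filters on level had to equal the values as reported, because a filter changes only which genes are compared. They therefore add no check, and only the differences under other scalings and pseudocounts could have moved. HK1 and PFKFB1, at 0.37 and 0.13 TPM in low glucose, lay so low that the pseudocounts used kept their differences small. Their side of the 2-fold rule is therefore no check either. The filter of at least 10 TPM left out HKDC1, PFKFB2, HK1 and PFKFB1, and the level groups left out HK1 and PFKFB1, so these have no value there. Over all genes compared, the median difference lay between -0.0032 and 0.0841 under the scalings tried. With 3-fold as the rule, 1 of the 7 genes of the set that were compared was higher. Over all genes, 234 were higher and 79 lower with a pseudocount of 5, 293 were higher at a mean of at least 10 TPM, 1786 were higher and 835 lower at 1.5-fold, and 119 and 22 at 3-fold. Of the listed other genes, 1 was higher when the level group's median was subtracted (MYC, 1.07), 1 was lower with a pseudocount of 0.1, and 2 were higher and 4 lower at 1.5-fold. MYC passed the rule there because the median of its level group was below 0 (the difference was 0.91 before the subtraction). The cause of the difference of MYC between the media was not tested. Shares of the family sums moved little when HK1 and PFKFB1 were left out. No paired analysis was possible because each medium has 1 library.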

Other observations

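Some genes had almost the same pair of levels as a member past the 2-fold rule, by Euclidean distance over log2(TPM + 1) in the 2 libraries. Nearest to GCKR was LOXL2, a lysyl oxidase (8.55 TPM in high glucose and 25.8 TPM in low glucose, distance 0.0267), followed by F2RL1 and AQP10. Nearest to HK2 was the histone gene HIST3H2A (26.6 and 62.6 TPM, distance 0.0642), followed by SCARNA17 and CYP4F3. Nearest to PFKFB4 was LOC100129917 (11.3 and 30.9 TPM, distance 0.0477), followed by EPPK1 and SCARNA9. HKDC1 had no neighbour as close: SNORA29 (1.88 and 10.1 TPM) lay at a distance of 0.216, ERN1, the stress sensor kinase of the endoplasmic reticulum (2.69 and 9.99 TPM), at 0.246, and SNORA31 at 0.332. With 2 libraries, such closeness says only that the levels match.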
